A study of Mus musculus with 2 samples.

Results

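The basal keratin genes Krt5, Krt14 and Krt15 were followed in single epithelial cells of the mouse cornea and limbus, the rim of the cornea where it meets the conjunctiva. They were chosen by name and are 3 of the 32285 genes listed in both matrices. There was 1 library from wild-type mice and 1 labelled Pax6 +/-, made from dissected cornea and limbus after most of the conjunctiva was cut away and the tissue was digested with liberase and trypsin. The series description speaks of 2 mice of each genotype, but whether mice were pooled in a library is not stated, and neither are the Pax6 allele, strain, sex and age. No other allele or treatment is named for either group. With 1 library per genotype there is no replicate, no test and no error between mice. "Higher" and "lower" therefore describe these 2 libraries, and every interval in brackets is an exact 95% interval that covers counting error only.

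Keratin filaments of epithelial cells are built from obligate pairs of a type I and a type II protein. Krt5 encodes the type II keratin of basal cells in stratified epithelia, and Krt14 encodes its usual type I partner there. Krt15 is another type I keratin of basal cells and is widely used as a marker of progenitor-rich regions such as the limbus and the hair follicle bulge. In the corneal epithelium the type I partner is Krt12, whose gene is a standard marker of corneal identity. Krt13 and Krt4 form the type I and type II pair typical of mucosal epithelia such as conjunctiva, and Gpha2 is a marker of a limbal epithelial population.

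Krt5 (ENSMUSG00000061527) lies in GRCm38 on chromosome 15 from 101707070 to 101712898, minus strand, with 9 exons in its longest annotated transcript. Krt14 (ENSMUSG00000045545) lies on chromosome 11 from 100203162 to 100207548 and Krt15 (ENSMUSG00000054146) from 100131758 to 100135928 on the same chromosome, both on the minus strand and with 8 exons each. The end of Krt15 and the start of Krt14 are 67233 bases apart. Because Krt14 and Krt15 are related and their balance per cell is reported here, the most alike ungapped stretch of 90 coding bases was located in the annotated transcripts. It spans coding bases 367 to 456 of Krt14 and 298 to 387 of Krt15, with capitals marking the 6 bases at which the 2 genes differ.
Krt14: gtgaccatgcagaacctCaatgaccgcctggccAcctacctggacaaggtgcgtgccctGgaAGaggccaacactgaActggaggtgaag
Krt15: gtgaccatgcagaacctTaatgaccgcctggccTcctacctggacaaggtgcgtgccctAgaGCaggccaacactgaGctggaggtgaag
These stretches were 93.3% identical. No window of 60 bases of the Krt15 transcript occurred in a transcript of another gene, so Krt14 and Krt15 share none. Of the 1639 such windows of Krt14, 163 (9.95%) also occurred in Krt16 or Krt17, 23 of them within its last 500 bases. For Krt5, 155 of 2138 windows (7.25%) occurred in Krt6a, Krt6b or the predicted genes Gm5414 and Gm5478, with 0 in the last 500 bases. Reads from the shared windows of Krt14 cannot be told apart from Krt16 and Krt17, so its counts are less certain than those of Krt15.

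The wild-type library held 124540296 unique molecular identifiers (UMIs, one per captured transcript) and the library labelled Pax6 +/- held 131567589. After the cell filters, 10154 and 9542 cells were kept, with medians of 10218.5 and 12537 UMIs, and 33 kept barcodes occurred in both libraries. Epithelial cells were gated on 14 epithelial genes that include no keratin, which left 9175 wild-type cells with a median of 10699 UMIs and 7011 cells with a median of 13789 UMIs in the other library. All 14 markers were detected in both. Pax6, the gene named in the genotype, stood at 3.71 UMIs per 10000 in wild-type epithelial cells and at 7.37 in those labelled Pax6 +/-, a ratio of 1.99 (1.96 to 2.01). This goes against a lower Pax6 level, but the allele is not named and the reads count transcript ends, so the value does not check the genotype. The library labelled Pax6 +/- also held cells of both sexes, 3538 epithelial cells with Xist but without a Y-linked UMI and 2566 with the reverse, whereas no wild-type epithelial cell had a Y-linked UMI without Xist.

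Across all epithelial cells, Krt5 was somewhat lower and Krt14 and Krt15 were each about 5-fold higher in the library labelled Pax6 +/- than in the wild-type library. Levels are UMIs of the gene per 10000 UMIs, summed over the cells of a class. They count transcript ends and were not divided by gene length. Krt5 stood at 66.0 in wild-type and at 41.5 in the other library, 1.59-fold lower (ratio 0.629, 0.627 to 0.631). Krt14 stood at 9.16 and 47.2 (ratio 5.15, 5.12 to 5.19). Krt15 stood at 20.8 and 104 (ratio 5.00, 4.98 to 5.02). Of 7047 genes reaching 20 CPM (counts per 1000000 UMIs) in a library, 12.7% exceeded 2-fold upward and 6.63% downward, so Krt14 and Krt15 are among the former and Krt5 is in neither group. Scaling by edgeR or DESeq2 factors moved the median log2 ratio of all genes from 0.15 to -0.14 or -0.16, and the share of the 2-fold differences that were higher from 65.7% to 44.4% or 43.7%. Krt14 and Krt15 were then at ratios of 4.21 and 4.08 (edgeR) or 4.17 and 4.04 (DESeq2), and Krt5 at 0.513 or 0.509.

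The per-cell values showed that sums and typical cells differ most for the type I genes. A wild-type epithelial cell had a median of 52.3 for Krt5, 2.13 for Krt14 and 0 for Krt15. In the library labelled Pax6 +/- the medians were 34.3, 42.4 and 44.7. At the 95th percentile wild-type cells reached 40.1 for Krt14 and 76.2 for Krt15, against 109.6 and 305 in the other library. The distributions overlapped for all 3 genes, and the highest wild-type cell reached 161 for Krt14 and 573 for Krt15. The wild-type sum for Krt15 thus lay far above its median cell.

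Free RNA was read from vessel, mural, Schwann and immune cells, which should lack these keratins. Krt5 stood at 5.03 per 10000 over 246 such wild-type cells and at 1.25 in 1314 such cells of the other library. Krt14 stood at 0.589 and 1.82, and Krt15 at 0.722 and 2.16. These levels lie below those of epithelial cells in their own library for every gene, by at least an order of magnitude in each sum, while the wild-type medians for Krt14 (2.13) and Krt15 (0) are close to them. The reference cells were shallower, with medians of 3591.5 and 6458 UMIs. With the reference levels subtracted, the epithelial ratios were 0.660 for Krt5, 5.29 for Krt14 and 5.07 for Krt15.

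The presence of both sexes in the library labelled Pax6 +/- offered a comparison that does not cross libraries. In Xist cells of the library labelled Pax6 +/-, without Y-linked UMIs, Krt5, Krt14 and Krt15 stood at 42.2, 47.1 and 103. In its Y-linked cells, without Xist, they stood at 40.8, 47.5 and 104. Over all epithelial cells the 3 levels were close between these sets, and the ratios to wild type kept their direction with either set of cells. Cells of different sex come from different mice, so sex cannot be told apart from mouse here.

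Epithelial cells were then divided at 60 Krt12 UMIs per 10000, since the 2 libraries differ strongly in Krt12. Krt12 stood at 287 in wild-type epithelial cells and at 17.3 in those labelled Pax6 +/-. In the wild-type library 8775 cells (95.6%) were at or above the limit, here called Krt12 high, and 400 (4.36%) below it, here called Krt12 low. In the other library 512 cells (7.30%) were Krt12 high and 6499 (92.7%) Krt12 low. The limit falls between 30 and 120 for 892 wild-type and 224 other cells. Krt12-low cells of the wild-type library still held 22.6 Krt12 UMIs per 10000, close to the 18.9 in their reference cells, against 1.01 and 0.415 in the library labelled Pax6 +/-.

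Among Krt12-high cells the 2 type I genes were higher in the library labelled Pax6 +/- and Krt5 was lower. Krt14 stood at 8.42 in wild-type and 32.6 in the other library (ratio 3.88, 3.83 to 3.93). Krt15 stood at 17.2 and 33.7 (ratio 1.96, 1.93 to 1.98). Krt5 stood at 66.7 and 51.2 (ratio 0.768, 0.761 to 0.776). In this class 8.29% of 6648 genes exceeded 2-fold upward and 5.13% downward, and Krt14 was the only one of the 3 past that size. Within the Krt12-high class labelled Pax6 +/-, Krt15 stood at 29.1 in 382 Xist cells and at 51.3 in 83 Y-linked cells. These come from different mice, so sex and mouse cannot be told apart. The ratio to wild type was 2.98 with the Y-linked cells alone and 1.69 with the Xist cells, so its side of the 2-fold size depends on them. Median cells gave 1.88 and 23.0 for Krt14, 0 and 4.05 for Krt15, and 53.2 and 43.5 for Krt5. The Krt12-high cells labelled Pax6 +/- were deeper (median 16942 UMIs against 10877) and had less Krt12 (199 against 296), and the part of either in these differences was not tested.

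Among Krt12-low cells none of the 3 genes was 2-fold apart, where 6.39% of 7016 genes exceeded 2-fold upward and 5.43% downward. Krt14 stood at 31.01 in wild-type and 48.5 in the other library (ratio 1.56, 1.54 to 1.59). Krt15 stood at 126 and 110 (ratio 0.874, 0.866 to 0.882), and Krt5 at 46.2 and 40.7 (ratio 0.880, 0.867 to 0.894). The direction for Krt15 and Krt5 depended on how cells were weighted. Median cells had 21.9 Krt15 UMIs per 10000 in wild-type and 48.3 in the other library, the opposite order to the sums. For Krt5 the medians were 28.6 and 33.3, also the opposite order. With the Krt12 limit at 120, Krt15 had a ratio of 1.59 and Krt5 of 1.02. In Krt12-low cells negative for Gpha2, Krt13 and Krt4, the ratios were 1.73 for Krt15 and 1.30 for Krt5, over 129 wild-type cells of a median depth of 3783 UMIs and 2013 other cells of 11741. Krt14 kept its direction under each of these settings.

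**Figure D1:**
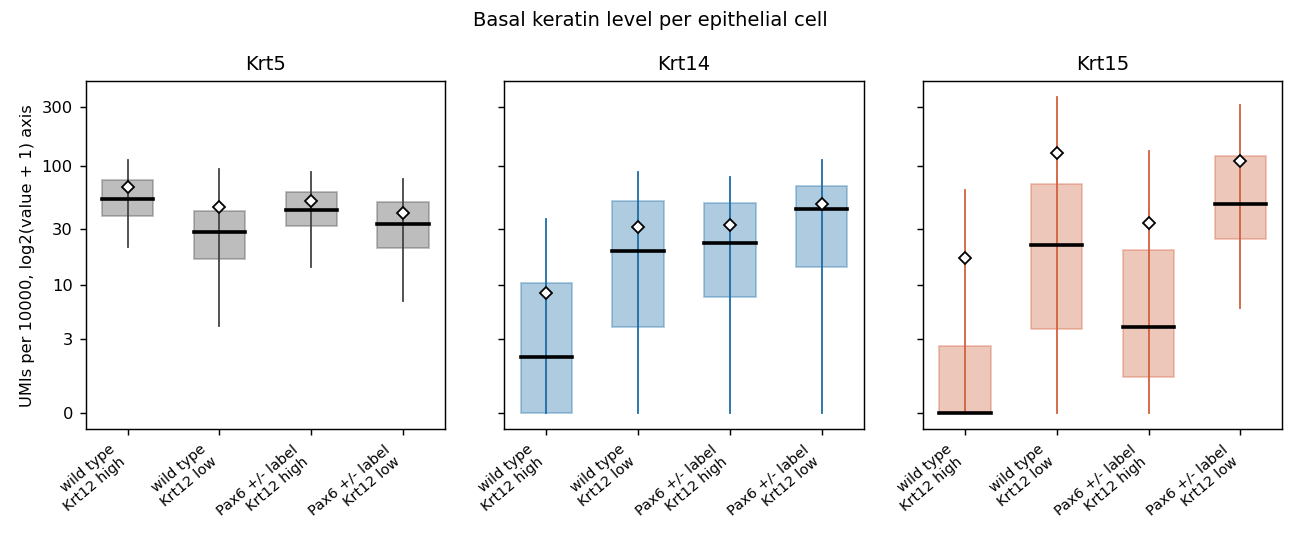
Per-cell level of Krt5, Krt14 and Krt15 in UMIs per 10000 on a log2(value + 1) axis, by library and Krt12 class. Boxes span the quartiles, black bars are medians, thin lines run from the 5th to the 95th percentile and diamonds are sums over the class. The medians for Krt15 run from 0 in wild-type Krt12-high cells to 48.3 in Krt12-low cells labelled Pax6 +/-, while the medians for Krt5 stay between 28.6 and 53.2.

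From a Krt12 level of 60 upward, Krt5 and Krt14 went opposite ways in each library. In wild-type cells, Krt5 was 35.4 where Krt12 was 60 to 120 and 100.5 where it was 400 or more. Over the same bins Krt14 was 21.95 and 1.39. In the library labelled Pax6 +/-, Krt5 was 37.0 and 91.2 and Krt14 was 41.0 and 3.69, the top bin holding 27 cells. Below 60 they did not go opposite ways. In wild-type cells Krt5 was 50.6 where Krt12 was under 20 and 41.2 where it was 20 to 60, and Krt14 was 39.5 and 21.3. Above that limit Krt5 thus lay close between the libraries at matched Krt12, whereas Krt14 stood higher in the library labelled Pax6 +/- in each of the 7 bins, for example 40.2 against 18.4 where Krt12 was 120 to 200. In wild-type cells Krt15 followed neither course: it was 143 where Krt12 was under 20, 12.04 at 120 to 200, and 23.9 at 300 to 400. In the library labelled Pax6 +/- it was 110 where Krt12 was under 20, 44.5 at 60 to 120, 24.1 at 200 to 300, 27.6 at 300 to 400 and 16.9 at 400 or more. From 60 upward Krt15 was higher there than in wild-type cells in each bin, for example 36.8 against 12.04 at 120 to 200. Median depth in wild-type cells was lowest, 4761 UMIs, in the bin from 60 to 120 and highest, 15895.5, in the top bin, and its part in these courses was not tested.

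**Figure D2:**
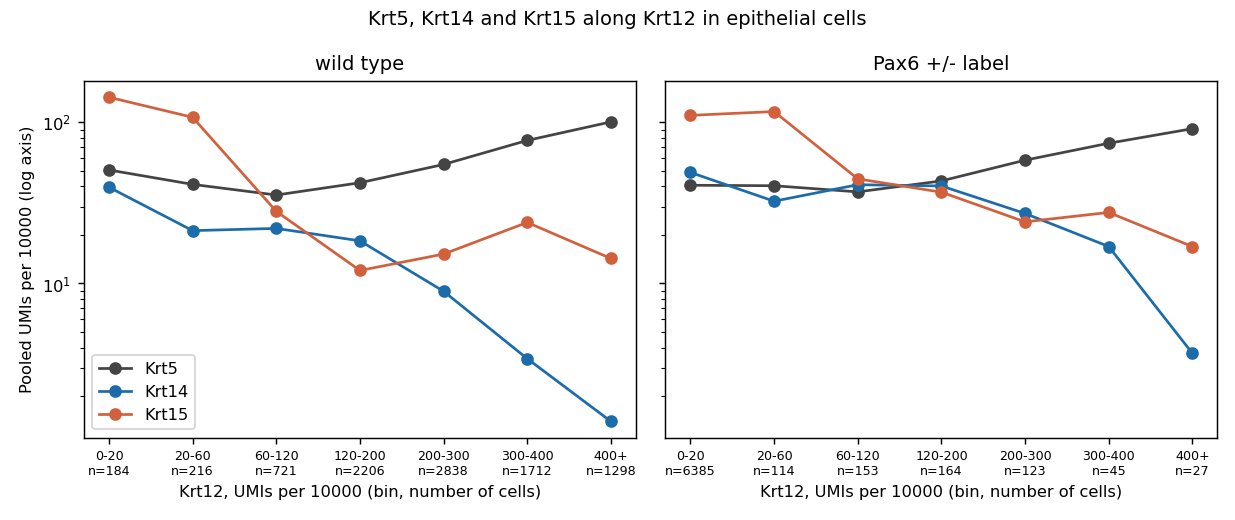
Summed UMIs per 10000 of Krt5, Krt14 and Krt15 (log axis) in bins of Krt12 UMIs per 10000, with the number of cells under each bin, for the wild-type library on the left and the library labelled Pax6 +/- on the right. From the bin 60 to 120 upward, Krt5 climbs to 100.5 and 91.2 while Krt14 drops to 1.39 and 3.69.

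The members differed by the status of the cell for Gpha2, Krt13 and Krt4, set at 2, 10 and 5 UMIs per 10000. Krt14 was higher in Gpha2-positive cells, the sums of Krt15 were higher in Krt13-positive and Krt4-positive cells, and those of Krt5 were moderately higher in the latter. Reference cells reached the limits in 0.813% (wild-type) and 1.52% (labelled Pax6 +/-) of cells for Gpha2, in 0% and 0% for Krt13, and in 0% and 0.228% for Krt4. Cells with a Gpha2 call from 1 UMI numbered 66 and 118.

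Krt14 was higher in Gpha2-positive than in Gpha2-negative cells of every class compared. In wild-type Krt12-high cells it stood at 18.6 in 405 positive and 7.997 in 8370 negative cells (ratio 2.32, 2.27 to 2.37), where 1.7% of genes exceeded 2-fold upward and 2.93% downward. In wild-type Krt12-low cells it stood at 48.0 in 217 positive and 7.85 in 183 negative cells (ratio 6.12, 5.77 to 6.49), against 13.4% of genes higher and 10% lower by that size. In Krt12-low cells labelled Pax6 +/- it stood at 61.9 in 2768 and 39.0 in 3731 cells (ratio 1.59, 1.58 to 1.60), under the 2-fold size that 3.59% of genes passed upward and 5.1% downward. Krt15 in Krt12-low cells stood at 77.6 in positive and 193 in negative cells of the wild-type library and at 51.0 and 153 in the other. In wild-type Krt12-high cells it was 17.0 and 17.2, a ratio of 0.985 (0.963 to 1.01) that became 1.46 within cells of 10000 to 20000 UMIs. Krt5 had ratios of 0.724, 0.797 and 0.709 in wild-type Krt12-high, wild-type Krt12-low and Krt12-low cells labelled Pax6 +/-.

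The Gpha2-negative cells include those with Krt13 or Krt4. In wild-type Krt12-low cells the direction for Krt15 and Krt5 turned once these were left out. Among wild-type Krt12-low cells without Krt13 and Krt4, Krt15 stood at 47.2 in Gpha2-positive and 40.2 in negative cells (ratio 1.17) and Krt5 at 34.5 and 26.3 (ratio 1.31). The median cell of the whole class went the same way, with 35.2 and 3.84 for Krt15 and 31.6 and 20.2 for Krt5. Over its 400 cells Gpha2 had Pearson r = 0.35 with Krt15 and 0.24 with Krt5. The Gpha2-positive cells of this class were deeper, with medians of 9502 UMIs against 4674 in negative cells. Without Krt13 and Krt4 these were 9247 and 3783. Krt15 and Krt5 had r = 0.61 and 0.38 with log2 UMIs per cell there, and the part of depth in these values was not tested. In wild-type Krt12-high cells without Krt13 and Krt4, Krt15 stood at 16.9 and 7.52 (ratio 2.25). Krt5 was lower in Gpha2-positive cells of that class. It stood at 48.8 in all 405 of them, of which 403 lacked Krt13 and Krt4. In Krt12-high cells negative for all 3 status genes it stood at 64.0. In Krt12-low cells labelled Pax6 +/- without Krt13 and Krt4, Krt15 stayed lower in Gpha2-positive cells, at 39.6 against 69.5 (ratio 0.569), and Krt5 stood at 30.3 and 34.1. Krt14 was higher in Gpha2-positive cells in all 3 of these comparisons. Its ratios were 3.37 in wild-type Krt12-low, 2.05 in wild-type Krt12-high and 1.31 in Krt12-low cells labelled Pax6 +/-.

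Krt15 was higher in Krt13-positive cells of either library, and most of all in the wild-type Krt12-high class. There it stood at 71.7 in 621 positive and 8.60 in 8154 negative cells (ratio 8.33, 8.26 to 8.41), where 7.5% of genes exceeded 2-fold upward and 22.2% downward. In wild-type Krt12-low cells it stood at 292 in 47 and 74.2 in 353 cells (ratio 3.93, against 12.4% of genes higher and 36.6% lower). In Krt12-low cells labelled Pax6 +/- it stood at 219 in 1127 and 71.03 in 5372 cells (ratio 3.08, against 7.32% higher and 12.4% lower). Krt5 was higher in Krt13-positive cells too, at ratios of 1.38, 1.73 and 1.62. Among wild-type Krt12-low cells negative for Gpha2 and Krt4, both directions turned: Krt15 had a ratio of 0.837 and Krt5 of 0.267, over 19 Krt13-positive and 129 negative cells. In the other 2 classes both genes kept their direction under that limit.

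Of the 3 genes, Krt14 differed most between the libraries in these Krt13-positive cells. In wild-type Krt12-high cells it stood at 1.61 in Krt13-positive and 9.496 in Krt13-negative cells, 5.91-fold lower. In wild-type Krt12-low cells it stood at 3.54 and 39.7, which is 11.2-fold lower. In Krt12-low cells labelled Pax6 +/- it stood at 36.3 and 53.0, which is 1.46-fold lower. Between libraries, Krt14 in Krt13-positive Krt12-low cells was 10.3-fold higher in the library labelled Pax6 +/- (interval 9.20 to 11.5), on 47 wild-type cells. Krt13-negative cells of the same class differed by a ratio of 1.34.

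By Krt4 status the pattern was the same in direction. Krt15 in wild-type Krt12-high cells stood at 239 in 59 Krt4-positive and 14.9 in 8716 negative cells (ratio 16.03, 15.8 to 16.2; 6.52% of genes past 2-fold upward and 21.2% downward). In Krt12-low cells it stood at 326 against 44.5 in wild-type (51 and 349 cells; ratio 7.34; 9.54% higher and 23.4% lower) and at 203 against 53.1 in the library labelled Pax6 +/- (1849 and 4650 cells; ratio 3.83; 7.11% higher and 9.51% lower). Krt14 was lower in Krt4-positive cells, at ratios of 0.297, 0.254 and 0.652. Krt5 was higher, at 1.34, 2.80 and 1.68. Krt13-positive cells were deeper than negative ones, with medians of 20428 and 10425 UMIs in wild-type Krt12-high cells and 18578 and 13149.5 in Krt12-low cells labelled Pax6 +/-. Within cells of 10000 to 20000 UMIs the Krt15 ratios by Krt13 status were 9.96, 2.38 and 3.56, and those by Krt4 status 15.4, 5.17 and 3.87.

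**Figure D3:**
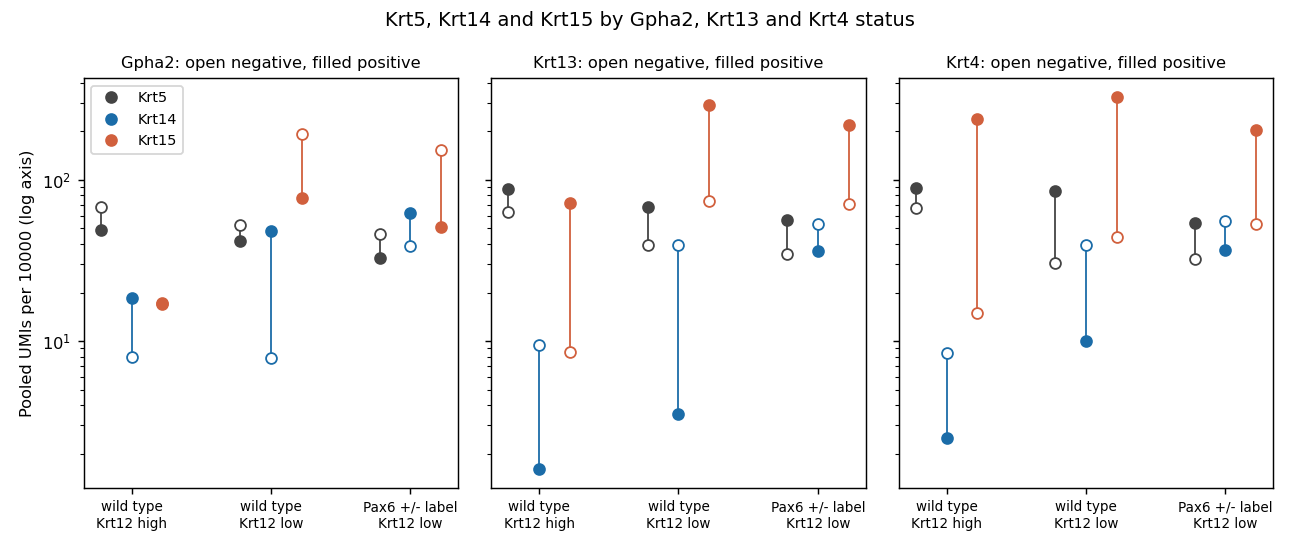
Summed UMIs per 10000 (log axis) of Krt5, Krt14 and Krt15 in cells negative (open points) and positive (filled points) for Gpha2, Krt13 and Krt4, in wild-type Krt12-high, wild-type Krt12-low and Krt12-low cells labelled Pax6 +/-. Krt15 is higher and Krt14 lower in Krt13-positive and Krt4-positive cells in all 3 classes, and Krt14 is higher in Gpha2-positive cells.

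The contrast between kinds of Krt12-low cells was plainest in cells defined by all 3 status genes. Gpha2-positive cells negative for Krt13 and Krt4 had 34.5 Krt5, 52.5 Krt14 and 47.2 Krt15 UMIs per 10000 in 201 wild-type cells, and 30.3, 62.2 and 39.6 in 2546 cells labelled Pax6 +/-. The ratios between libraries were 0.880, 1.18 and 0.839 there. Cells positive for both Krt13 and Krt4 and negative for Gpha2 had 86.2 Krt5, 3.34 Krt14 and 381 Krt15 in 25 wild-type cells, and 57.7, 33.1 and 236 in 954 cells labelled Pax6 +/-. The Krt14 median in the latter was 6.57 and its 95th percentile 146, so a part of those cells carries most of the sum.

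Co-expression was counted after each cell was thinned to 3000 UMIs, with a gene held at 3 or more of them. This left out 1023 shallower wild-type epithelial cells and 561 labelled Pax6 +/-. Krt5 was held by 99.0% of 8152 wild-type and 94.0% of 6450 other epithelial cells. Krt14 was held by 31.01% and 80.4%, and Krt15 by 18.5% and 89.5%. Both type I genes together were held by 5.69% of wild-type cells (5.20% to 6.22%) and 72.3% of those labelled Pax6 +/- (71.2% to 73.4%). Krt5 without either occurred in 55.5% and 1.30%. Reference cells held Krt5 in 14% and 1.71%, Krt14 in 0.667% and 1.89%, and Krt15 in 2% and 2.40%, so free RNA can reach the limit for Krt5 in the wild-type library more often than for the other genes. Doublets were not removed, and their part in cells holding both type I genes was not tested. Without thinning, Krt14 was held by 44.98% and Krt15 by 24.8% of the 9175 wild-type cells.

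By Krt12 class, the wild-type library itself contained both states. Krt14 and Krt15 together were held by 3.57% of its Krt12-high cells (3.17% to 4.01%) and by 54.3% of its Krt12-low cells (48.8% to 59.6%). In the library labelled Pax6 +/- the shares were 26.7% (22.8% to 30.8%) and 76.0% (74.9% to 77.1%). Of wild-type Krt12-high cells that held Krt14, 12.1% also held Krt15, against 81.1% in the Krt12-low class. In cells labelled Pax6 +/- these were 35.9% and 94.0%. Among all cells of the same classes Krt15 was held by 16.1% and 72.7% in wild-type and by 37.6% and 93.7% in the other library. The shares among Krt14 holders thus lay near those of their whole class.

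The balance of the 2 type I genes in single cells was read from the Krt15 share of their summed UMIs, in cells with at least 20 of them. That minimum kept 2501 of 8775 Krt12-high and 253 of 400 Krt12-low wild-type cells. In the library labelled Pax6 +/- it kept 358 of 512 and 5842 of 6499. In the wild-type Krt12-high cells that were kept, the share was split between extremes. Of 2501 cells, 48.6% had a share under 10%, 29.9% had one over 90% and 21.5% lay between, with a median of 12.2%. Krt12-low cells were mostly intermediate. Of 253 wild-type cells 73.9% lay between 10% and 90% with a median of 52.7%, and of 5842 cells labelled Pax6 +/- 75.7% lay there with a median of 50.3%. Shares over 90% were still found in 24.5% and 21.7% of these cells, not far below the 29.9% of wild-type Krt12-high cells. Shares under 10% were found in 1.58% and 2.58%. Of 358 Krt12-high cells labelled Pax6 +/-, 48.0% were intermediate, with a median of 17.0%, but this mixes cells of different sex and mouse. Among 246 Xist cells 38.2% were intermediate with a median of 13.3%, and among 73 Y-linked cells 72.6% were, with a median of 34.3%.

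Status set these shares apart. Among wild-type Krt12-high cells with Krt13, 91.3% of 413 had a Krt15 share over 90%, against 17.8% of 2088 without it. In Krt12-low cells with Krt13 it was 97.0% of 33 wild-type cells and 61.4% of 1090 cells labelled Pax6 +/-. Gpha2-positive Krt12-low cells were intermediate in 91.4% of 187 wild-type cells (median 44.8%) and in 94.8% of 2667 cells labelled Pax6 +/- (median 37.0%).

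**Figure D4:**
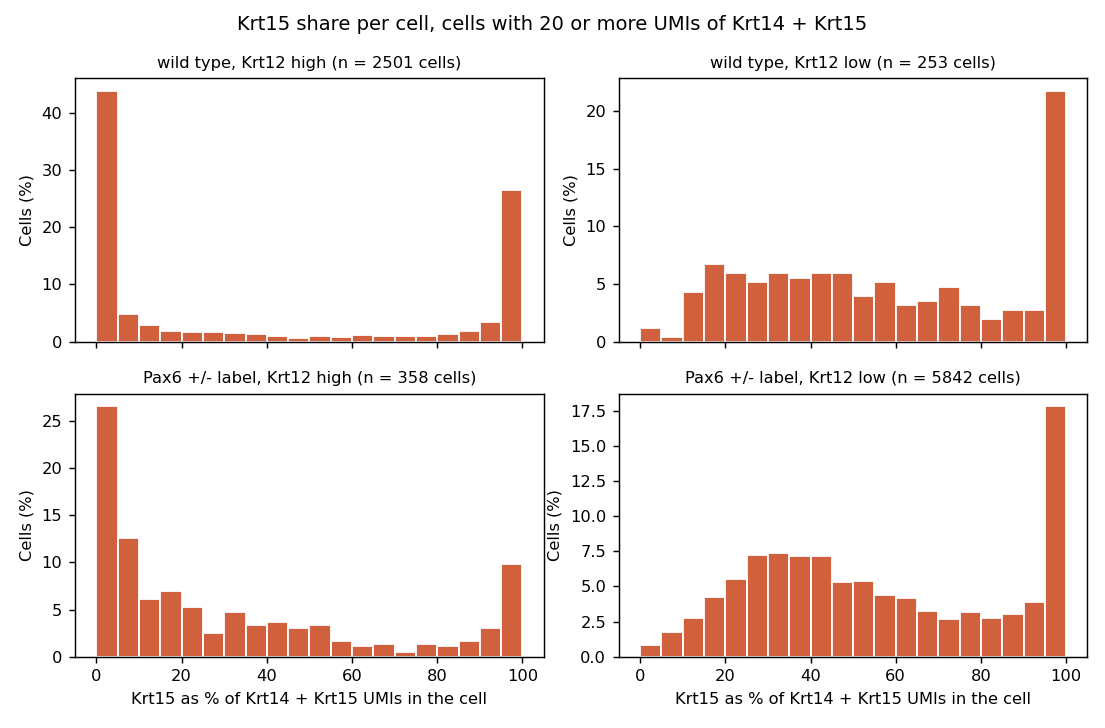
Share of Krt15 in the Krt14 plus Krt15 UMIs of single cells with at least 20 of them, as a percentage of cells in bins of 5 percentage points, by library and Krt12 class. Wild-type Krt12-high cells pile up at both ends, with 48.6% under 10% and 29.9% over 90%. Of the Krt12-low cells of the 2 libraries, 73.9% and 75.7% lie between and 24.5% and 21.7% lie over 90%.

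Since type I and type II keratins pair, the totals of each type were compared. All type I genes together gave 329 UMIs per 10000 in wild-type epithelial cells and 202 in those labelled Pax6 +/-, and all type II genes gave 101 and 69.2. The ratio of type I to type II was 3.28 and 2.92. Within type I, Krt14 and Krt15 together made up 9.11% in wild-type and 75.03% in the other library, and Krt12 made up 87.2% and 8.60%. Within type II, Krt5 made up 65.7% and 60.1%. Krt12 per Krt5 UMI was 4.35 and 0.417, and Krt14 plus Krt15 per Krt5 UMI was 0.454 and 3.64. In Krt12-low cells Krt14 plus Krt15 made up 75.4% and 82.0% of type I, and Krt5 50.1% and 59.0% of type II. The single genes differed more: Krt14 was 14.9% and 25.02% of type I, Krt15 60.6% and 56.9%, Krt12 10.8% and 0.521%, and Krt17 1.24% and 6.33%. Krt12 set this class, and its wild-type level there was close to that of reference cells. The part of free RNA in these type I shares was not tested. Krt6b was 21.6% and 8.30% of type II.

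**Figure D5:**
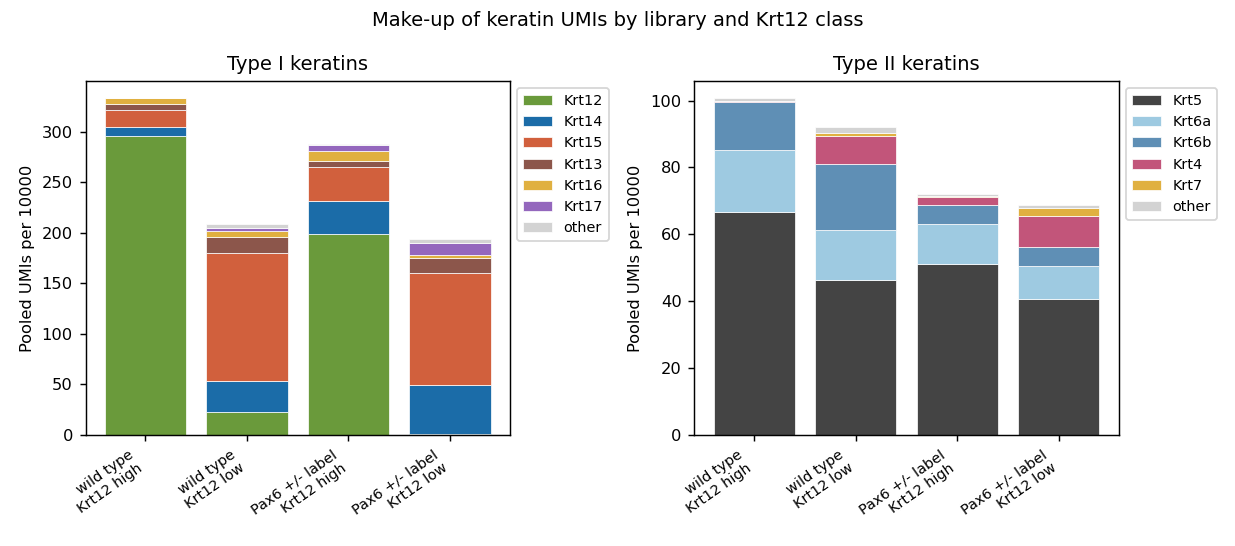
Summed UMIs per 10000 of type I keratins (left) and type II keratins (right), stacked by gene, by library and Krt12 class. Krt12 fills most of the type I bar in Krt12-high cells of both libraries, Krt14 and Krt15 fill most of it in Krt12-low cells (75.4% and 82.0%), and Krt5 is the largest type II gene in all 4.

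Of the other 49 keratins, 12 reached 20 CPM in a library. In epithelial cells labelled Pax6 +/-, 6 of them exceeded 2-fold upward and 2, Krt12 and Krt6b, downward, where 12.7% and 6.63% of all genes did. Their median log2 ratio was 0.82 against 0.15 over all genes tested. Krt17, a keratin of hair follicle and injured epidermis, stood at 0.181 in wild-type and 11.7 per 10000 in the other library (log2 ratio 6.02). Krt19, a type I keratin of simple and some stratified epithelia, stood at 0.290 and 3.29, and Krt7, a type II keratin of simple epithelia, at 0.0445 and 2.23. The mucosal pair Krt13 and Krt4 stood at 5.63 and 14.4, and at 0.524 and 8.70. Krt8, of simple epithelia, stood at 0.0130 and 0.325. Among the stress and hyperproliferation keratins, Krt6b stood at 14.6 and 5.73, Krt6a at 18.3 and 9.95 and Krt16 at 5.92 and 2.99, of which Krt6b alone passed 2-fold. Krt80 stood at 0.721 and 0.426 and Krt10, of suprabasal epidermis, at 0.224 and 0.275. In Krt12-high cells 4 of 12 were 2-fold higher (Krt17, Krt7, Krt4 and Krt18) and 2 lower (Krt80 and Krt6b), against 8.29% and 5.13% of all genes. In Krt12-low cells 3 of 13 were higher (Krt17, Krt7 and Krt8) and 5 lower (Krt12, Krt16, Krt80, Krt75 and Krt6b), against 6.39% and 5.43%. Of these, Krt12 is the gene that set the class, and its wild-type level there was close to that of reference cells. Its place in the count is therefore no separate result. There Krt17 was still at 2.59 and 12.3 while Krt13 was at 16.2 and 15.2, Krt19 at 3.69 and 3.56 and Krt4 at 8.20 and 9.27.

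Cycling cells, with at least 5 UMIs per 10000 of cell cycle genes, had less Krt15 in every class compared. In wild-type Krt12-high cells Krt15 stood at 6.18 in 1337 cycling and 19.3 in 7438 other cells (ratio 0.320). In Krt12-low cells it stood at 93.8 and 132 in wild-type (52 and 348 cells) and at 69.3 and 121 in the library labelled Pax6 +/- (1085 and 5414 cells). Krt14 was higher in cycling wild-type Krt12-high cells, at 13.6 against 7.43 (ratio 1.83), and in Krt12-low cells labelled Pax6 +/-, at 59.2 against 45.8 (ratio 1.29), but stood at 29.2 and 31.3 in wild-type Krt12-low cells. Krt5 was lower in cycling cells of these 3 classes, with ratios of 0.722, 0.863 and 0.940. Cells positive for Krt13 or Krt4 were not left out here, and their part in these differences was not tested. The share of all genes past 2-fold was not counted by cycling status.

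Correlations over cells, on log2(UMIs per 10000 + 1), are given as a description. The points share a library, and the values rise with depth (r = 0.33 with log2 UMIs per cell for Krt5 in wild-type epithelial cells). In wild-type Krt12-low cells the r with depth was 0.38 for Krt5 and 0.61 for Krt15. In those labelled Pax6 +/- it was 0.38 and 0.37. Krt5 followed Krt12 in Krt12-high cells, with Pearson r = 0.72 over 8775 wild-type and 0.60 over 512 other cells. In Krt12-low cells it followed Krt15, with r = 0.70 over 400 and 0.64 over 6499 cells. Krt14 and Krt15 had r = -0.08 in wild-type Krt12-high, 0.22 in wild-type Krt12-low and -0.32 in Krt12-low cells labelled Pax6 +/-.

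The genes most like each member over epithelial cells were ranked by Pearson r among 1667 genes of the wild-type and 1759 genes of the other library. For Krt5 in wild-type cells they were Gsta4, Calml3, Aqp5, Krt12 and Ptgr1 (r from 0.67 to 0.55), with Aqp5 encoding a water channel of the corneal epithelium. In cells labelled Pax6 +/- they were Aqp3, Perp, S100a11, Ppia and S100a6 (0.63 to 0.59), with no gene in common over all epithelial cells. Within a Krt12 class the lists did share genes: Gsta4, Calml3 and Aqp5 were among the closest 5 in Krt12-high cells of both libraries, and Aqp3 and Perp in Krt12-low cells of both. For Krt14 they included Fosb, Pxdc1, Fosl1 and Nrg1 (0.50 to 0.47), of which Fosb and Fosl1 encode AP-1 subunits, and in the other library Ftl1, Igfbp2, Ifitm3, Ptma and Rpsa (0.59 to 0.55), again with none in common, while Ftl1 and Ifitm3 were among the closest 5 in Krt12-low cells of both. For Krt15 they were Ifitm1, Cstdc5, Akr1b7, Krt13 and Pglyrp1 (0.60 to 0.50), and in the other library Krt4, Gsta4, Serpinb3a, Ifitm1 and Cbr2 (0.65 to 0.58), with Ifitm1 in both. Perp is also 1 of the 14 genes that defined the epithelial gate.

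A list of 16 basal epithelial genes held genes of adhesion to the basement membrane together with other basal cell genes such as Trp63, Bcl11b and Egfr. In epithelial cells labelled Pax6 +/-, 4 of them exceeded 2-fold upward (Bcl11b, Cdh3, Lamb3 and Cav1) and 2 downward (Cd44 and Col17a1), against 12.7% and 6.63% of all genes. Their median log2 ratio was 0.03, against 0.15 over all genes. Bcl11b, a transcription factor of basal keratinocytes, stood at 0.123 in wild-type and 1.19 per 10000 in the other library, and Cdh3 (P-cadherin) at 0.218 and 1.08. Lamb3, a laminin-332 chain, stood at 0.243 and 0.779, and Cd44, the hyaluronan receptor, at 7.63 and 2.96. Egfr, the receptor of epidermal growth factor, was nearly level at 3.82 and 3.79. Col17a1, the hemidesmosomal collagen, stood at 12.9 and 5.80. In Krt12-high cells 6 were 2-fold higher and 0 lower, against 8.29% and 5.13% of all genes, and the median log2 ratio was 0.44 against 0.01. Among these, Bcl11b stood at 0.111 and 0.817, Cdh3 at 0.201 and 0.713, and Lama3, another laminin chain, at 3.88 and 8.73. In Krt12-low cells 1 was higher, Bcl11b, and 1 lower, Cd44, against 6.39% and 5.43%, and the median was -0.40 against 0.11.

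A list of genes that attach or handle keratin filaments also held Krt8 and Krt18, which are keratins themselves and are counted above as well. Of its 14 measured genes, 1 exceeded 2-fold upward (Krt8) and 5 downward (Dsp, Evpl, Ppl, Sfn and Hspb1), against 12.7% and 6.63% of all genes. Their median log2 ratio was -0.57, against 0.15 over all genes. Desmoplakin (Dsp), which anchors keratins at desmosomes, stood at 22.6 and 9.07, and envoplakin (Evpl), a cornified envelope plakin, at 2.98 and 1.10. The small heat shock protein gene Hspb1 stood at 34.98 and 14.6. Stub1 (0.697 and 0.821) and Plec (2.88 and 2.43) differed least. In Krt12-high cells 1 was 2-fold higher (Krt18) and 2 lower (Evpl and Ppl), with a median of -0.30 against 0.01. In Krt12-low cells 0 were 2-fold lower and 1, Krt8, was higher, with a median of -0.32 against 0.11. Dsp, Sfn and Pkp3 of this list, and Trp63 of the adhesion and regulator lists, also served in the epithelial gate.

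Of 20 measured regulators linked to basal keratin genes, 1 exceeded 2-fold upward (Tfap2b) and 1 downward (Klf4), against 12.7% and 6.63% of all genes. Their median log2 ratio was 0.08, against 0.15 over all genes. Tfap2b, an AP-2 factor, stood at 0.0528 in wild-type and 0.993 per 10000 in the other library, and Klf4, a factor of epithelial differentiation, at 9.56 and 3.50. Pax6 is given above and Junb, an AP-1 subunit, stood at 18.8 and 10.0. Tfap2c (1.05 and 1.02) and Sp1 (0.525 and 0.501) differed least. Trp63, the p63 factor of basal cells, stood at 2.06 and 2.98. In Krt12-high cells 4 were 2-fold higher (Tfap2b, Fosl1, Sox9 and Pax6) and 1 lower (Junb), against 8.29% and 5.13% of all genes, with a median of 0.10 against 0.01. In Krt12-low cells 2 were higher, Tfap2b (0.334 and 1.04) and Pax6 (3.30 and 7.33), and 0 were lower, with a median of -0.24 against 0.11.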

How the data were processed

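The deposited matrices hold counts, raw UMIs per gene and barcode with no normalization, made with Cell Ranger 8.0.0 per the file headers and on GRCm38 per the submitters' processing notes. The cell filters were 500 genes, 1000 UMIs and no more than 20% mitochondrial UMIs. Scrublet (scanpy 1.11.5) marked 3 wild-type (0.0295%) and 38 other cells (0.398%). A caller marking so few has not worked, so no doublets were removed. Epithelial cells had a summed level of 14 markers of at least 20 per 10000, above each of 10 other marker sets. That rule was set after the data were seen. UMIs were summed per library and class. Ratio intervals are conditional binomial and share intervals Clopper-Pearson. Ratios and companion ranking were tested on simulated data. The members and gene lists were chosen with earlier results of these data known. Named genes were the members, other keratins with at least 20 CPM (the 12 highest), the 5 closest companions per library among genes with at least 100 CPM, and per list the 4 largest and 2 smallest log2 ratios. A gene that this rule names is not reported here. Col17a1, Trp63, Lama3 and the genes named only in a count of 2-fold differences were named after their values were seen. Alternatives used edgeR 4.0.16 and DESeq2 1.42.0 scaling factors only.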

Additional observations from a re-analysis of the deposited data

How the results depend on the processing

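Depth limits Krt14 and Krt15 most in wild-type cells, whose medians are near 0, and the 400 wild-type Krt12-low cells limit every value in that class. No paired analysis was possible because there is 1 library per genotype and the labels carry no replicate numbers, and leaving out a library leaves no comparison. Krt15 has no ratio of medians in all epithelial or Krt12-high cells, since the wild-type median is 0. A value counts as shifted here when it leaves the main value's own counting interval, which is narrow. All ratios are the library labelled Pax6 +/- over wild type. The cause of each shift was not tested.

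In all epithelial cells the ratios for Krt5, Krt14 and Krt15, in that order, kept their direction under every setting run. They were 0.619, 5.07 and 4.92 scaled to non-keratin UMIs, 0.635, 5.21 and 5.05 scaled to UMIs without mitochondrially encoded genes, 0.513, 4.21 and 4.08 with edgeR factors and 0.509, 4.17 and 4.04 with DESeq2 factors. They were 0.634, 5.21 and 5.03 at no more than 10% mitochondrial UMIs and 0.660, 5.29 and 5.07 less the reference level. Krt5 and Krt15 were at 0.626 and 4.89 from 5000 UMIs per cell, at 0.631 and 5.03 with the stricter gate, and at 0.639 and 4.97 over Xist cells. Krt5 and Krt14 were at 0.618 and 5.19 over Y-linked cells and at 0.655 and 19.9 as medians. Krt14 and Krt15 were at 5.28 and 4.92 without the top Scrublet scores.

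In Krt12-high cells the ratios, in the same order, were 0.752, 3.80 and 2.32 with the Krt12 limit at 30, 0.830, 3.81 and 1.77 with it at 120, and 0.741, 4.03 and 1.92 in cells negative for the 3 status genes. Krt5 and Krt14 were at 0.817 and 12.2 as medians, Krt14 and Krt15 at 3.67 and 1.69 over Xist cells, all 3 genes at 0.799, 4.06 and 2.98 over Y-linked cells, and Krt15 at 1.92 from 5000 UMIs per cell. In Krt12-low cells they were 0.826, 1.31 and 0.798 with the limit at 30 and 0.836, 1.47 and 0.806 from 5000 UMIs, and Krt15 was at 0.897 over Xist and 0.845 over Y-linked cells. Krt5 and Krt15 turned direction there with the limit at 120 (1.02, 1.88 and 1.59), as medians (1.16, 2.23 and 2.20) and in cells negative for the 3 status genes (1.30, 3.04 and 1.73). The medians, the depth minimum, the Y-linked cells and the status-negative cells of these classes were added after seeing the data.

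Cells holding both type I genes came to 9.17% in wild-type and 80.1% in the other library at 5000 thinned UMIs, 16.5% and 84.7% from 1 thinned UMI, and 1.09% and 35.7% from 10. Krt15 shares from 10% to 90% came to 30.2% of wild-type cells from 50 UMIs and 70.2% of Xist cells labelled Pax6 +/-. The count of genes 2-fold higher and lower, 895 and 467, was 5305 and 1845 with no filter but a count in both, 235 and 200 from 100 CPM, 592 and 741 with edgeR factors and 585 and 754 with DESeq2 factors. Of the status ratios, that of Krt15 by Gpha2 in wild-type Krt12-high cells, 0.985, was 1.72 with doubled limits, 1.46 within 10000 to 20000 UMIs, 1.14 where a status needed 3 UMIs and 2.25 in cells without the other status genes. In wild-type Krt12-low cells without the other status genes, Krt15 and Krt5 turned to 1.17 and 1.31 by Gpha2 and to 0.837 and 0.267 by Krt13, and as medians by Gpha2 they were at 9.16 and 1.56. All these settings but the doubled limits were added after seeing the data.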
